A study of Mus musculus with 3 samples.

Results

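The cells described here are Fabp1-high, Apoa4-low barcodes of the mouse small intestinal epithelium, a profile read as that of early enterocytes. Fabp1 encodes the liver-type fatty acid binding protein of the cytoplasm, and Apoa4 and Apoc3 encode apolipoproteins that enterocytes load onto lipoproteins as they climb the villus. A barcode was kept when it had 500 or more detected genes and at most 20% mitochondrial UMIs. It was a member when Fabp1 made up 0.4% or more of its UMIs, Apoa4 plus Apoc3 under 0.5%, Fabp6 under 1%, Tff3 under 2% and Defa24 under 5%, with at most 2 summed UMIs of Sox17 and Msx1. In all, 1932 of 39227 kept barcodes met this rule: 511 of 11391 in WT, 998 of 10864 in LApc and 423 of 16972 in LApcL.

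Each genotype had 1 droplet library of sorted EpCAM+ cells, EpCAM being an epithelial surface protein. The WT and LApcL libraries were taken 21 days and the LApc library 29 days after tamoxifen, when the mice met the criteria for euthanasia. All 3 groups were C57BL/6, received 2 doses of 2 mg tamoxifen at an age of 7 to 8 weeks, and differed in alleles: the WT library is labelled as carrying none, LApc carried Lgr5-CreERT2 with Apc fl/fl, and LApcL carried Lef1 fl/fl in addition. The Cre is driven from Lgr5, so recombination starts in crypt stem cells and reaches an enterocyte only through its descent. Genotype, day and library cannot be told apart for LApc, and genotype and library cannot be told apart for LApcL. With 1 library a group no test was possible, each library came from 1 mouse per the methods, and all intervals below are exact 95% intervals that cover counting error only.

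Enterocytes are the absorptive cells of the villus. They are born in the crypt, leave the cell cycle at its mouth and then switch on, in order, host-defence lectins, brush border hydrolases and nutrient transporters, and at the villus tip the lipoprotein genes. Apc loss activates Wnt signalling in crypt cells and makes adenomas, and Lef1 is a transcription factor of that pathway.

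The 5 genes given as markers lie on 4 chromosomes of GRCm38 (GENCODE M21). Fabp1 is at chr6:71199827-71205023 and Reg1, a secreted C-type lectin of the regenerating family, at chr6:78422711-78428667, both on the plus strand. Gsta1, a glutathione transferase, is at chr9:78230656-78242684, Arg2, the mitochondrial arginase, at chr12:79130777-79156301 and Papss2, which makes the sulfate donor, at chr19:32595790-32667187, all on the plus strand. Reg3b (chr6:78370657-78373466, plus) and Reg3g (chr6:78466269-78468872, minus) encode secreted antibacterial lectins and flank Reg1 within the same lectin cluster.

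The 250 bases before the RefSeq start of 4 of these genes are shown (GRCm38.p6, 5′ to 3′ on the gene's strand): Fabp1 because it chose the cells, Reg1 as a lectin marker of the cells, and Reg3b and Reg3g because their levels differed between the libraries. Capitals mark TATAAA on either strand and, in Reg3b, the palindrome TTCNNNGAA, the letters that STAT factors are known to bind.
Fabp1, chr6:71199629-71199878, plus strand: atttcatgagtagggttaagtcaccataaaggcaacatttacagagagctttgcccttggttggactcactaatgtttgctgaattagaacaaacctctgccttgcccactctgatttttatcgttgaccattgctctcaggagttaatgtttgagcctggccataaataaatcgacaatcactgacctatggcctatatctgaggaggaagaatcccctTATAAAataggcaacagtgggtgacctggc
Reg1, chr6:78425733-78425982, plus strand: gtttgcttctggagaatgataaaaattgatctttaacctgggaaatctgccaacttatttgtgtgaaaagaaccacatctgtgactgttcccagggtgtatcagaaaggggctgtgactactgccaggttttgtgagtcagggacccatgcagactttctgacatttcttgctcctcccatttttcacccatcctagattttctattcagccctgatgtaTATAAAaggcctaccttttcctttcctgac
Reg3b, chr6:78370635-78370884, plus strand: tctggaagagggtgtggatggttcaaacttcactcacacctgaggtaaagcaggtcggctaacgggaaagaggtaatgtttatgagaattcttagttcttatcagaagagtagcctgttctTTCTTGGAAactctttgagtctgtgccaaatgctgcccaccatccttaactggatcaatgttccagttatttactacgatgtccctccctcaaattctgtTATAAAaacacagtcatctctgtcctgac
Reg3g, chr6:78468875-78469124, minus strand: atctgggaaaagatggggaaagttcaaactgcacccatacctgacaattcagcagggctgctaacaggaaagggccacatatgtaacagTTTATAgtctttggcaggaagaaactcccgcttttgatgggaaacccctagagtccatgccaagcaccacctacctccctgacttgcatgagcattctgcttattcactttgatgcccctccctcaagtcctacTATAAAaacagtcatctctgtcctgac
TATAAA lay 30 to 25 bases before the start of Fabp1 and of Reg1, 29 to 24 before that of Reg3b and 27 to 22 before that of Reg3g, and again on the opposite strand of Reg3g, 161 to 156 bases before it. It was held by 12.4% of 32851 RefSeq promoters of the same length. TTCTTGGAA lay 129 to 121 bases before the start of Reg3b, and TTCNNNGAA was held by 7.02% of promoters and not found in the other 3 windows. The 2 motifs do not overlap each other. A match describes these letters and is no evidence of binding.

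The members were chosen by their Fabp1, Apoa4, Apoc3, Fabp6, Tff3, Defa24, Sox17 and Msx1 UMIs, so these values are a description. Fabp1 had a median of 0.868% of a member's UMIs in WT, 1.00% in LApc and 0.879% in LApcL, with a highest member of 4.44%, 5.99% and 3.89%. Apoa4 plus Apoc3 had a median of 0.137%, 0.152% and 0.0440%, so the LApcL members lay lower within the permitted range. Within 0.1 percentage points of the Fabp1 limit stood 77 WT, 141 LApc and 61 LApcL members, with 109, 205 and 96 otherwise like barcodes just outside. Within 0.1 points of the Apoa4 plus Apoc3 limit stood 51, 111 and 18 members, with 57, 90 and 22 outside. The Sox17 and Msx1 limit removed 0 barcodes from WT, 3 from LApc and 64 from LApcL that met every other limit.

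Member depth was a median of 10474 UMIs and 2727 genes in WT, 6966 UMIs and 2100 genes in LApc, and 9352 UMIs and 2539 genes in LApcL, with median mitochondrial shares of 6.60%, 6.74% and 6.02%. Summed over members the libraries held 5802038, 6982490 and 4182631 UMIs, and the shallowest member had 5924, 1763 and 2888 UMIs. No barcode sequence was shared between members of different libraries, but 23 WT, 43 LApc and 15 LApcL members had the sequence of a kept barcode of another library. Without them Reg3b stood at 4459, 23790 and 19990 CPM, against 4441, 23530 and 19630 CPM with them. No doublet caller was run.

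The markers of the label were found in many but not all members, and a minority carried the transcripts of other cell types. Thinned to 3000 UMIs, 86.3% of WT, 85.3% of LApc and 54.9% of LApcL members held a Gsta1 UMI, against 28.0%, 45.0% and 14.6% of Tff3-high, goblet-type barcodes of the same libraries, whose median depths were 9082, 5448 and 7074 UMIs. At the same thinning Papss2 was found in 59.9%, 61.6% and 48.7% of members, against 11.7%, 14.4% and 8.38% of those barcodes, and Reg1 in 74.6%, 65.8% and 73.4% of members. Limits set after seeing the data marked as tuft-like the members with 0.1% or more of their UMIs from 8 tuft genes: 75 in WT (14.7%), 53 in LApc (5.31%) and 60 in LApcL (14.2%). Tuft cells are chemosensory cells. In the tuft-like members Dclk1, a classical tuft marker, stood at 882, 676 and 859 CPM. It is among the 8 genes of the limit, so this value is a description. Their median Fabp1 share, 1.30%, 1.71% and 1.38%, was above that of the absorptive members defined next (0.830%, 1.10% and 0.860%), while their Reg1 (764, 282 and 1488 CPM) and Gsta1 (300, 171 and 102 CPM) were lower. Of all kept barcodes that met the tuft limit, 20.1% of 374 in WT, 48.6% of 109 in LApc and 12.7% of 474 in LApcL were members.

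A further 19, 32 and 5 members were enteroendocrine-like (0.5% or more of UMIs from hormone-cell genes), and 32, 119 and 6 carried goblet or Paneth transcripts at or above 1% and 0.5% with Tff3 and Defa24 left out. The remaining 385 WT, 794 LApc and 352 LApcL barcodes are called absorptive members: 75.3%, 79.6% and 83.2% of the members. In them Dclk1 was 1.11, 0.666 and 1.08 CPM, a low value that the tuft limit itself sets. The summed T cell genes stood at 2.45, 16.2 and 0.813 CPM, the B cell and macrophage genes at 0.890, 2.16 and 0 CPM, and the fibroblast and endothelial genes at 0.445, 0.999 and 2.44 CPM. Values below are for all members unless absorptive members are named.

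**Figure D1:**
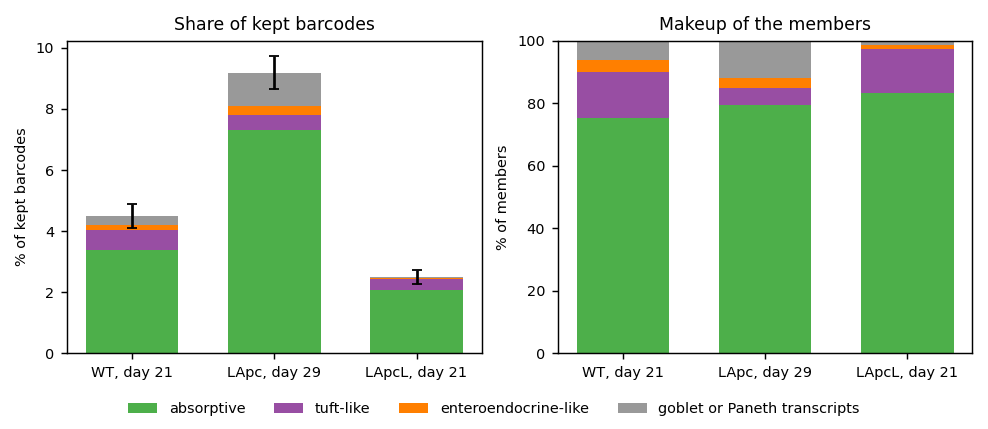
Left, members as a percentage of kept barcodes in each library, stacked by what else they express, with the exact 95% interval of the total (counting error only). Right, the same parts as a percentage of the members. LApc has the tallest bar (9.19%), and tuft-like barcodes take 14.7%, 5.31% and 14.2% of the members.

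Members made up 4.49% of kept barcodes in WT (4.11 to 4.88), 9.19% in LApc (8.65 to 9.75) and 2.49% in LApcL (2.26 to 2.74). Adenoma barcodes, those with more than 2 summed Sox17 and Msx1 UMIs, took a large part of the LApcL library. Over barcodes without them the shares were 4.49% in WT, 9.64% in LApc (9.08 to 10.2) and 5.76% in LApcL (5.24 to 6.32), which puts LApcL above WT where the first denominator put it below. Absorptive members alone were 3.38%, 7.31% and 2.07% of kept barcodes. Among Fabp1-high enterocytes of every kind, members were 49.0% in WT (45.9 to 52.1), 42.2% in LApc (40.2 to 44.2) and 60.6% in LApcL (56.9 to 64.3), and Apoa4-high enterocytes were 48.8%, 56.7% and 39.0%. Sorting and dissociation can set such shares, and their part was not tested.

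The targeted genes come first in the comparison of genotypes. Apc stood at 19.99 CPM in WT members (116 UMIs), 19.1 in LApc (133 UMIs) and 23.9 in LApcL (100 UMIs). Over WT, the log2 ratio of LApc was -0.07 (-0.44 to 0.30) and that of LApcL 0.26 (-0.14 to 0.66). Tags at the 3′ end lie outside the deleted part of Apc, so these values do not check the deletion. Lef1 gave 0 UMIs in WT, which allows up to 0.517 CPM, 6 UMIs in LApc and 4 in LApcL. No fold is given for a gene this low, and Lef1 deletion in these cells could not be read. The 9 adenoma genes summed to 9.14, 45.1 and 67.7 CPM, and to 0.667, 31.6 and 59.0 CPM in the absorptive members, with Notum, a secreted Wnt inhibitor, at 0.222, 5.49 and 9.75 CPM in the latter. Cycling crypt cells are barcodes with Fabp1 under 0.4% and 0.1% or more of UMIs from 8 cell cycle core genes, other limits unchanged. Those of the same libraries held Notum at 0.121, 27.6 and 34.3 CPM. The part of free RNA and of recombined descent in these low values was not tested.

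The leading genes of the members, against all other kept barcodes of the same library, were those of uptake and detoxification. Besides Fabp1, which the rule used, the 20 leading genes held Reg1, Gsta1, Papss2 and Arg2 of the marker list. Reg1 was 4847 CPM in WT, 4353 in LApc and 6013 in LApcL, against 413, 618 and 198 in the other barcodes. Gsta1 was 1923, 1312 and 568 CPM against 242, 290 and 25.3, Arg2 was 867, 593 and 521 CPM against 179, 162 and 37.9, and Papss2 was 620, 570 and 465 CPM against 75.5, 123 and 30.3. All 4 were higher in members within each library.

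Other leading genes fell into clear roles. Rbp2 (7501, 9322 and 6955 CPM), a carrier of retinol in the enterocyte cytoplasm, Rdh7 (207, 169 and 116 CPM), a retinol dehydrogenase, and Aldh1a1 (294, 320 and 123 CPM), which makes retinoic acid, handle vitamin A. Khk (651, 659 and 395 CPM), the fructokinase, and Tkfc (279, 246 and 153 CPM), the triokinase, break down fructose, and Sis (1134, 1445 and 508 CPM), the sucrase-isomaltase, splits sucrose at the brush border. Adh1 (925, 648 and 637 CPM), an alcohol dehydrogenase, was also high in the tuft-like members (2414, 3256 and 2641 CPM). Il18 (251, 213 and 123 CPM) encodes an epithelial cytokine, and Reg3a (510, 288 and 165 CPM) another lectin. Gsta1 and the Reg3 and Sprr2a families have near-identical copies, and their reads may be split between them.

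**Figure D2:**
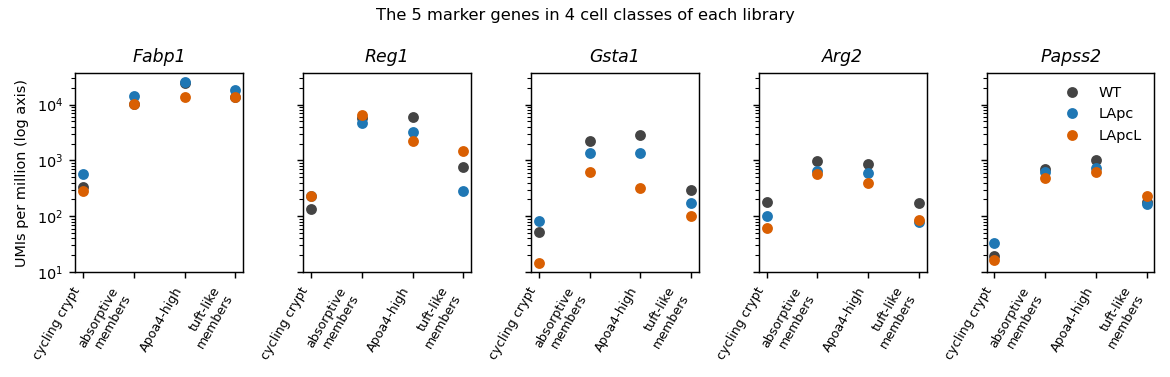
Summed CPM (log axis) of the 5 marker genes in cycling crypt cells, absorptive members, Apoa4-high enterocytes without other-type transcripts and tuft-like members, 1 point per library. All 5 genes are higher in absorptive members than in cycling crypt cells, Fabp1 by the choice of both classes. Of the 5 only Fabp1 is as high in tuft-like as in absorptive members.

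Beside Apoa4-high enterocytes without other-type transcripts, the absorptive members had lower villus genes and higher genes of the crypt-villus border. Apart from the rule's own genes, Apoa1, the main apolipoprotein of chylomicrons and HDL, was 7477, 5556 and 5418 CPM in absorptive members against 24490, 22970 and 35740 CPM in Apoa4-high cells. Apob, the structural protein of chylomicrons, was 384, 492 and 457 against 1138, 1493 and 1952 CPM. Lct, the lactase, was 255, 92.1 and 114 against 1117, 819 and 918 CPM. Cyp3a11, a steroid and drug hydroxylase, was 64.95, 55.9 and 15.2 against 596, 925 and 348 CPM, and Sepp1, a selenium carrier, was 256, 209 and 296 against 2270, 2835 and 4790 CPM. All were lower in members in all 3 libraries. The marker list itself set the classes apart less clearly. Of its 5 genes, 1 was higher in absorptive members in all 3 libraries and 2 were lower, with medians of -0.37, 0.05 and 0.51. In all members the list summed to 18790, 20460 and 18150 CPM, against 34210, 29650 and 17440 CPM in all Apoa4-high enterocytes. Papss2 was 697, 608 and 493 against 1014, 742 and 610 CPM, and Gsta1 was 2192, 1378 and 623 against 2832, 1332 and 319 CPM. Gsta1 was thus lower in members in WT and higher in LApcL, and Papss2 was lower in all 3.

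In the other direction, Dmbt1, a mucosal scavenger receptor of host defence, was 975, 1060 and 1633 CPM against 143, 175 and 151 CPM. Pycard, the inflammasome adaptor, was 1691, 1487 and 1792 against 530, 308 and 319 CPM, and Lgals2, a galectin, was 4574, 2847 and 3725 against 1385, 803 and 533 CPM. Krt19, a keratin, was 2839, 2211 and 2564 against 903, 676 and 804 CPM. The 10 genes highest in absorptive members over Apoa4-high cells also held Hspe1, a mitochondrial chaperonin (939, 623 and 771 against 334, 194 and 219 CPM), and Gpx1, a glutathione peroxidase (1411, 1200 and 1387 against 453, 431 and 430 CPM). In all members the corresponding 10 genes held Cd24a and Krt18, which tuft cells express: Cd24a was 1045, 355 and 728 CPM in all members and 40.3, 26.1 and 54.2 CPM in absorptive members.

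Whole lists gave the same picture as a description. Against Apoa4-high cells, 0 of 15 brush border enzymes were higher in absorptive members in all 3 libraries and 15 were lower, with median log2 ratios of -1.25 in WT, -1.22 in LApc and -2.00 in LApcL. Of 16 fat absorption genes 15 were lower in all 3 libraries (medians -0.89, -0.89 and -1.39). Of 31 nuclear genes of oxidative phosphorylation 28 were higher in all 3 (medians 0.19, 0.28 and 0.40), and of 12 genes of immature enterocytes 10 were higher (0.47, 0.60 and 0.41). Against cycling crypt cells, all members were higher for 12 of 12 brush border enzymes (medians 2.78, 2.68 and 2.79) and lower for 6 of 6 cell cycle core genes (-3.53, -3.64 and -2.91). Apoa4 and Apoc3 chose the members and move with these lists, so the differences are no test. Cycling crypt cells were chosen by low Fabp1 and by the cell cycle core genes themselves, so the lower core values were set in advance.

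Members varied along Apoa4 plus Apoc3, and the libraries were spread unequally over that range. In 3 bins (under 0.05%, 0.05 to 0.2% and 0.2 to 0.5% of UMIs) stood 51, 171 and 163 absorptive members of WT, 118, 392 and 284 of LApc, and 174, 104 and 74 of LApcL. Apoa1 climbed across the bins from 2228 to 4959 and 12120 CPM in WT, from 1328 to 4038 and 9751 CPM in LApc, and from 1165 to 6494 and 15030 CPM in LApcL. Brush border enzymes summed to 3194, 4059 and 7305 CPM in WT, 2647, 4660 and 6890 CPM in LApc, and 1581, 3445 and 6636 CPM in LApcL. Dmbt1 went the opposite way, from 1851 to 411 CPM in WT, 2134 to 507 CPM in LApc and 2252 to 519 CPM in LApcL between the lowest and the highest bin, as did Lgals2 (6315 to 3030, 4163 to 1747 and 4956 to 1343 CPM). In all 3 libraries these genes ran in the same order along the bins.

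Along Fabp1 (0.4 to 0.8%, 0.8 to 1.6% and 1.6% or more) the cell cycle core genes summed to 123, 112 and 55.4 CPM in WT, 125, 71.1 and 44.6 CPM in LApc, and 263, 113 and 95.6 CPM in LApcL. Reg1 was uneven from cell to cell: among absorptive members its lower quartile, median and upper quartile were 354, 2524 and 8369 CPM in WT, 107, 627 and 5781 CPM in LApc, and 264, 2806 and 11120 CPM in LApcL. The tenth percentile was 61.0, 0 and 43.3 CPM and the ninetieth 15990, 16020 and 22350 CPM, so members lay far apart. Lypd8, an anti-flagellin barrier protein, was even by contrast, with quartiles of 3074, 4010 and 4992 CPM in WT, 2754, 3740 and 4943 CPM in LApc, and 2952, 4217 and 5906 CPM in LApcL.

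**Figure D3:**
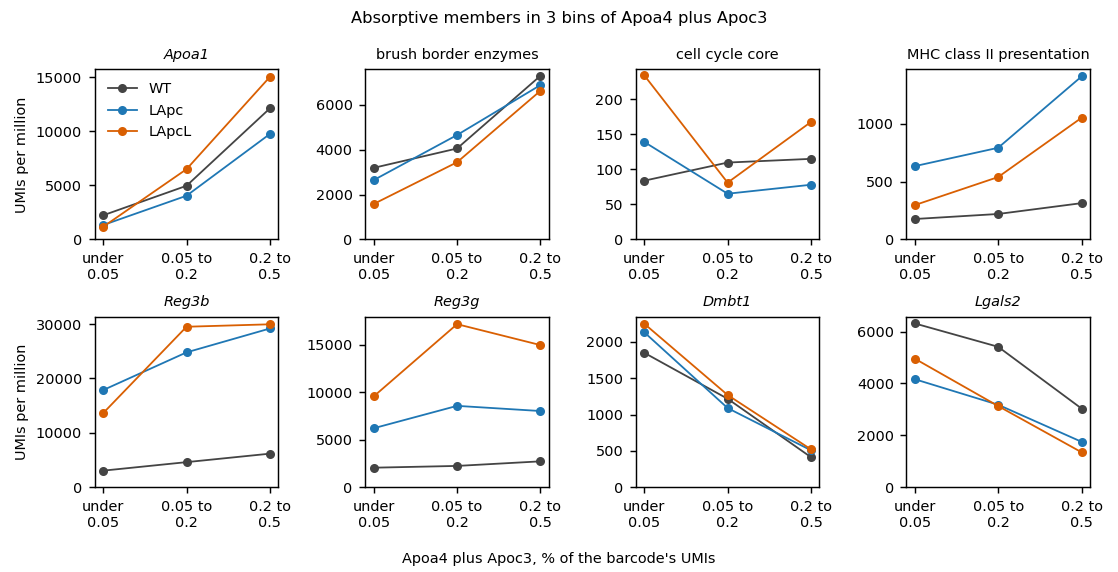
Summed CPM of the absorptive members in 3 bins of Apoa4 plus Apoc3 (percentage of a barcode's UMIs) in each library. Apoa1 and brush border enzymes climb and Dmbt1 and Lgals2 decline across the bins in all 3 libraries, while Reg3b of WT (3025 to 6155 CPM) lies below both other libraries in every bin.

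Comparing libraries, few genes were 2-fold or more apart. In LApc over WT, 25 of 2429 genes with a mean of 50 CPM or more were 2-fold or more higher (1.03%) and 56 lower (2.31%). In LApcL over WT, 16 of 2432 were higher (0.658%) and 53 lower (2.18%), and in LApcL over LApc 11 of 2410 were higher (0.456%) and 42 lower (1.74%). Among absorptive members the counts were 26 higher (1.09%) and 31 lower (1.3%) of 2378, 24 (1.02%) and 56 (2.37%) of 2364, and 12 (0.507%) and 32 (1.35%) of 2366. The counting interval lay wholly past 2-fold for 17 and 42, 12 and 40, and 6 and 26 genes in all members. The median log2 ratio over all tested genes was -0.08, -0.09 and 0.01, the background for the list medians below. The percentages called are likewise the background for the list counts below. LApc over WT and LApcL over WT share the WT library, so they are set side by side and no overlap is read from them.

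The antibacterial lectins Reg3b and Reg3g differed at high levels. Reg3b stood at 4441 CPM in WT members, 23530 in LApc and 19630 in LApcL, a log2 ratio over WT of 2.41 (2.39 to 2.42) and 2.14 (2.12 to 2.16). Reg3g stood at 2151, 7475 and 11700 CPM, a log2 ratio of 1.80 (1.77 to 1.83) and 2.44 (2.42 to 2.47). Both sums were low in WT alone. Per cell, the median absorptive member had 1781, 17200 and 17040 CPM of Reg3b and 1041, 3631 and 10020 CPM of Reg3g, and the upper quartile of WT for Reg3b (5350 CPM) lay below the lower quartile of LApc (7353 CPM) but above that of LApcL (4487 CPM). Their promoters are those shown above.

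The other lectins of the cluster did not follow. For Reg1, LApc over WT was -0.16 (-0.18 to -0.13) and LApcL over WT 0.31 (0.29 to 0.34) on the log2 scale. Reg3a was lower, at -0.82 (-0.91 to -0.74) and -1.63 (-1.75 to -1.51). Over the 18 antimicrobial and barrier genes in the files, 3 of 10 tested were 2-fold higher and 2 lower in LApc over WT (median -0.06), and 2 higher and 3 lower in LApcL over WT (median 0.22), with the list summing to 20070, 43070 and 45930 CPM. Among all tested genes the shares were 1.03% higher and 2.31% lower, and 0.658% higher and 2.18% lower. Outside the members, Reg3b differed in the same direction in Apoa4-high enterocytes without other transcripts (6589, 19100 and 17310 CPM). In cycling crypt cells it was 1404, 5885 and 1778 CPM and in Tff3-high barcodes 2991, 5597 and 2282 CPM, so LApcL stood near WT there. Reg4, whose level in LApc (562 CPM, against 149 in WT and 198 in LApcL) was high in all members, was 40.7, 37.6 and 21.9 CPM in absorptive members.

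A small set of barrier and interferon-inducible genes was higher in both Apc-deleted libraries. Sprr2a3, a small proline-rich barrier protein, was 2.41 CPM in WT (14 UMIs), 199 in LApc and 159 in LApcL, a log2 ratio of 6.37 (5.62 to 7.24) and 6.04 (5.29 to 6.92). It was found in 223 of the LApc and 117 of the LApcL absorptive members, with at most 7% of its UMIs in 1 barcode of either. Ifitm3, an antiviral membrane protein, was 23.4, 121 and 229 CPM, and S100a6, a calcium-binding protein, 67.6, 299 and 596 CPM, which puts LApcL highest for each (log2 over WT 3.29, 3.03 to 3.56, and 3.14, 2.99 to 3.3). Without members holding a cell cycle UMI, S100a6 was 2.02 in LApcL over WT and its LApcL over LApc ratio fell from 1.00 to 0.20. Both genes were higher still in cycling crypt cells of LApcL (1022 and 1937 CPM, against 255 and 69.5 CPM in WT). The 25 genes of the interferon list gave 0 calls among 7 tested in each comparison, with medians of 0.08 and -0.20 over WT.

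Antigen presentation genes of MHC class II were higher in LApc and, less so, in LApcL. Cd74, the invariant chain, was 91.7 CPM in WT, 495 in LApc and 233 in LApcL (log2 over WT 2.43, 2.30 to 2.57, and 1.35, 1.19 to 1.5). H2-Ab1, a class II beta chain, was 38.4, 146 and 67.7 CPM (1.92, 1.71 to 2.14, and 0.82, 0.56 to 1.08), and H2-Eb1 and H2-Aa kept the same order at 20.2, 93.5 and 34.4 CPM and 17.9, 74.6 and 29.4 CPM. Ctss, the protease that trims the invariant chain, was level at 76.0, 72.2 and 79.6 CPM. In LApcL over LApc 4 of 5 tested genes were 2-fold lower (median -1.11), against 1.74% of all tested genes. Within the Apoa4 plus Apoc3 bins the list summed to 176, 220 and 314 CPM in WT, 633, 792 and 1408 CPM in LApc and 297, 539 and 1051 CPM in LApcL, so the order held in each bin. Apoa4-high enterocytes kept the order too, at 619, 3177 and 2241 CPM. Cycling crypt cells held 631, 1040 and 557 CPM and Tff3-high barcodes 807, 603 and 491 CPM, so LApcL lay below WT there. With libraries weighted to the same mix of Fabp1 and Apoa4 plus Apoc3, Cd74 in LApcL over LApc was -0.59 in place of -1.09. The summed T cell genes stood at 15.9, 25.5 and 15.1 CPM in all members, with Cd3e at 1 UMI in each library. The B cell and macrophage genes stood at 1.03, 2.44 and 0 CPM. LApc was highest for both lists, and the part of immune cells in the class II values was not tested.

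Metal handling separated the 2 Apc-deleted libraries. The metallothionein Mt1, which buffers zinc, was 563 CPM in WT, 1978 in LApc and 609 in LApcL, and Mt2 was 104, 335 and 88.7 CPM. For Mt1 the log2 ratio over WT was 1.81 (1.76 to 1.87) in LApc and 0.11 (0.04 to 0.19) in LApcL, and the median absorptive member had 386, 1657 and 460 CPM. LApc alone was high. S100g, the calbindin that carries calcium through the enterocyte, was 1807 CPM in WT, 293 in LApc and 828 in LApcL, with log2 ratios of -2.62 (-2.69 to -2.56) and -1.13 (-1.18 to -1.07). With libraries weighted to the same mix of Fabp1 and Apoa4 plus Apoc3 the LApcL over WT value was -0.99, no longer 2-fold, and in the highest bin of absorptive members S100g was 2534, 458 and 1684 CPM. Its upper quartile in absorptive members was 2155, 325 and 910 CPM. Vdr, the vitamin D receptor that drives S100g, was 158, 115 and 133 CPM, and Trpv6, the apical calcium channel, gave 2, 3 and 2 UMIs. The calcium and vitamin D list summed to 2147, 532 and 1084 CPM in members and 2102, 1199 and 1361 CPM in Apoa4-high enterocytes. WT was lowest in cycling crypt cells (310, 462 and 1069 CPM) and in Tff3-high barcodes (189, 267 and 772 CPM).

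Of the iron genes, the uptake genes Slc11a2, Cybrd1 and Tfrc had higher values in both Apc-deleted libraries, while the list as a whole was level. Slc11a2, the apical iron transporter DMT1, was 32.1, 75.3 and 110.0 CPM (log2 over WT 1.23, 0.99 to 1.48, and 1.78, 1.53 to 2.03). Cybrd1, the ferric reductase beside it, was 2, 66 and 115 UMIs, or 0.345, 9.45 and 27.5 CPM. Tfrc, the transferrin receptor, was 58.6, 103 and 92.3 CPM. Over the iron list, 1 of 8 tested genes, Slc11a2, was 2-fold higher and 0 lower in each comparison with WT, and 4 of 8 lay above 0 (medians 0.11 and 0.02). Of all tested genes 1.03% and 0.658% were higher. Cybrd1 lay under the 50 CPM limit, and the ferritin chain Fth1 was 10310, 8364 and 7640 CPM.

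**Figure D4:**
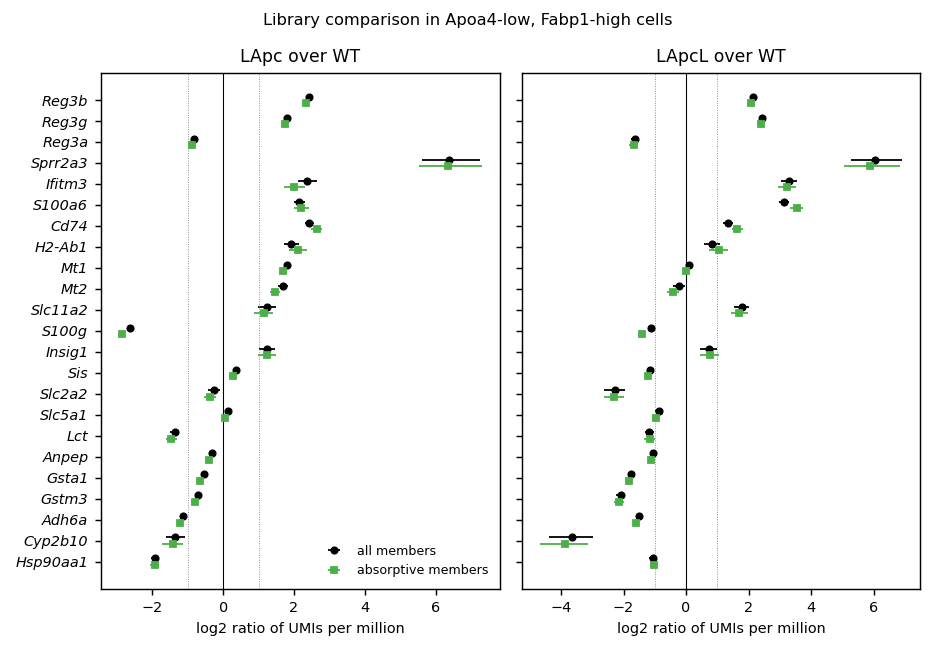
Log2 ratio of CPM over WT for 23 genes in LApc (left) and LApcL (right), for all members (circles) and absorptive members (squares), with exact 95% counting intervals as bars and 2-fold as dotted lines. Reg3b, Reg3g and Sprr2a3 lie right of 2-fold in both, S100g left in both (in LApcL only without weighting to the same mix), while Mt1 lies right only in LApc and Slc2a2 left only in LApcL.

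Genes of sugar digestion and uptake were lower in LApcL. Slc2a2, the basolateral glucose and fructose transporter GLUT2, was 106 CPM in WT, 88.9 in LApc and 21.8 in LApcL (log2 over WT -0.25, -0.42 to -0.09, and -2.28, -2.62 to -1.96). Sis was 1134, 1445 and 508 CPM (0.35, 0.30 to 0.39, and -1.16, -1.23 to -1.09), and Slc5a1, the apical sodium-glucose cotransporter, was 471, 519 and 255 CPM. Slc2a5, the fructose transporter, was 39.1, 76.6 and 35.2 CPM, high in LApc alone. The sugar list had a median of 0.02 in LApc over WT (0 of 7 called) and -0.86 in LApcL over WT (1 of 5 lower), and 3 of 6 genes were 2-fold lower in LApcL over LApc. Among all tested genes 2.18% were lower in LApcL over WT and 1.74% in LApcL over LApc.

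Since LApcL members lay low within the Apoa4 plus Apoc3 range, these values were also read within bins. In the highest bin Slc2a2 was 193, 164 and 79.8 CPM and Sis 1691, 1950 and 948 CPM, and in the lowest bin Slc2a2 was 57.6, 22.4 and 5.70 CPM and Sis 854, 791 and 334 CPM. With libraries weighted to the same mix, Slc2a2 in LApcL over WT was -1.66 and Sis -0.76, which is no longer 2-fold. LApcL was lowest in every bin for both.

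Brush border hydrolases as a list depended on that mix. Lct was 236, 90.9 and 105 CPM, lower in both Apc-deleted libraries (-1.37, -1.51 to -1.24, and -1.17, -1.32 to -1.01), and Anpep, aminopeptidase N, was 978, 778 and 472 CPM (-0.33, -0.38 to -0.28, and -1.05, -1.13 to -0.98). In the highest bin of absorptive members Lct was 448, 190.5 and 403 CPM, with LApcL near WT, and in the lowest bin 64.6, 14.2 and 17.6 CPM. Anpep was 1547, 1203 and 1178 CPM in the highest bin and 463, 320 and 194 CPM in the lowest. The list's median was 0.02 in LApc over WT (1 of 14 lower, against 2.31% of all tested genes) and -0.43 in LApcL over WT (3 of 13 lower, against 2.18%). Its sum was 4755, 4821 and 2901 CPM. At the same mix the LApcL over WT median was 0.16, the opposite sign, and those of fat absorption (-0.40, 0 of 16 called) and peptide transport (-0.49, 1 of 8 lower) became -0.10 and -0.15. The sugar list was -0.50.

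Detoxification genes were lower in LApcL and, for some, in LApc. Gsta1 was 1923, 1312 and 568 CPM, with log2 ratios over WT of -0.55 (-0.59 to -0.51) and -1.76 (-1.82 to -1.69). Gstm3, a glutathione transferase of the mu class, was 465, 286 and 110 CPM (-0.70, -0.79 to -0.62, and -2.08, -2.23 to -1.94), and Gsta4, which clears lipid aldehydes, was 339, 132 and 94.4 CPM (-1.36 and -1.84). Cyp2b10, a drug hydroxylase, was 59.6, 23.3 and 4.78 CPM (346, 163 and 20 UMIs). For each of these 4 genes WT was highest and LApcL lowest.

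Adh6a, an alcohol dehydrogenase, was 812, 368 and 286 CPM (-1.14, -1.21 to -1.07, and -1.51, -1.60 to -1.41), and Aldh1a1 was 294, 320 and 123 CPM, lower in LApcL alone. Of the detoxification list 2 of 25 tested genes were 2-fold lower in LApc over WT (median 0.00), 8 of 24 in LApcL over WT (median -0.45) and 5 of 25 in LApcL over LApc (median -0.48), with 0 higher in each. Over all tested genes 2.31%, 2.18% and 1.74% were lower. In the 3 bins of Apoa4 plus Apoc3, Gsta1 was 1973, 1824 and 2696 CPM in WT, 819, 1215 and 1878 CPM in LApc and 449, 760 and 887 CPM in LApcL. At the same mix the list's LApcL over WT median was -0.36.

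Among genes of lipid metabolism, those of fatty acid oxidation had a list median of -0.02 in LApc and 0.09 in LApcL over WT. Scd2, a stearoyl-CoA desaturase, was 26.0, 164 and 67.2 CPM, and Insig1, a brake on sterol synthesis, 36.5, 85.6 and 60.7 CPM. The cholesterol synthesis list had medians of 0.71 and 0.36 over WT, with 1 of 7 and 0 of 6 tested genes 2-fold higher, and 0.93 and 0.75 in absorptive members, with 3 of 6 and 0 of 5. Of all tested genes 1.03% and 0.658% were higher, and 1.09% and 1.02% in absorptive members.

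**Figure D5:**
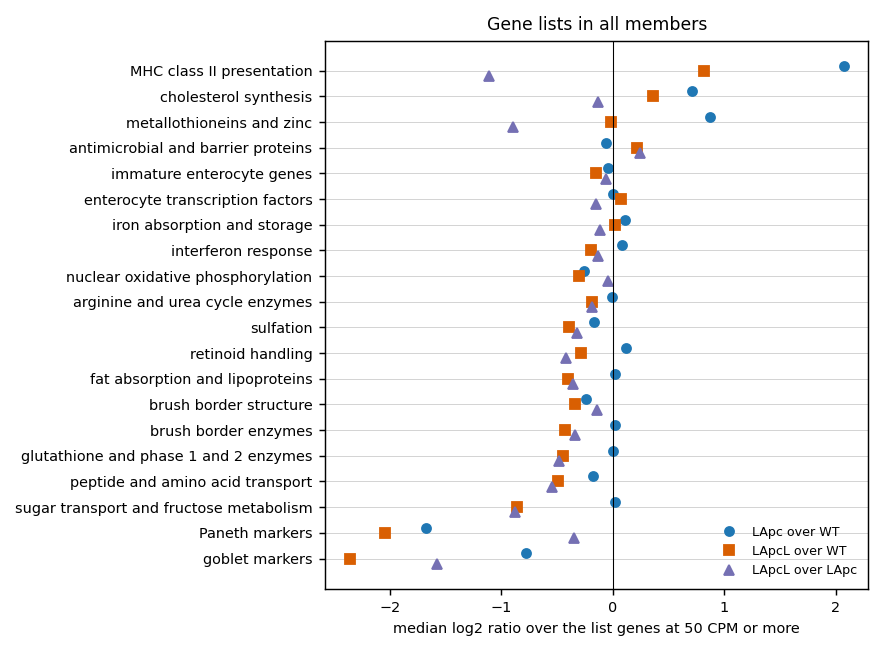
Median log2 ratio of CPM over the tested genes of 20 lists in all members, for LApc over WT, LApcL over WT and LApcL over LApc. MHC class II stands furthest right in LApc over WT (2.07), and goblet and Paneth transcripts stand furthest left in both comparisons with WT. Transcription factors lie near 0, and oxidative phosphorylation lies at -0.26 in LApc over WT and -0.30 in LApcL over WT.

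Identity genes differed little. Of the enterocyte transcription factors, 0 of 14 tested were 2-fold apart in any comparison, with medians of 0.00, 0.07 and -0.15. Hnf4a, a master factor of the absorptive lineage, was 147, 145 and 155 CPM, Cdx2, which sets intestinal identity, was 89.97, 118 and 100 CPM, and Gata4, which marks the upper small intestine, was 38.8, 38.7 and 36.6 CPM. Lypd8 (3719, 3807 and 4072 CPM) was level and Ccl25, a chemokine for gut lymphocytes, was 1070, 989 and 694 CPM. Nuclear genes of oxidative phosphorylation gave 0 of 31 calls, but 0 of 31 lay above 0 in either comparison with WT. Their medians over WT were -0.26 and -0.30, against -0.08 and -0.09 over all tested genes. Their sums were 43130, 36410 and 35380 CPM. Proximal genes gave 2 of 9 lower in each comparison with WT (Adh6a, and Lct, whose LApcL value varied by bin, above), with medians of 0.07 and -0.35. Over all tested genes 2.31% and 2.18% were lower. Distal genes gave 0 of 7, with medians of 0.47 and -0.48.

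Heat shock genes, which cells raise under handling and heat, were high in WT alone. Hspa1a, the inducible HSP70, was 84.5 CPM in WT (490 UMIs), 0.143 in LApc (1 UMI) and 0.478 in LApcL (2 UMIs), and Hspa1b 253, 1 and 1 UMIs. Hsp90aa1 was 525, 137 and 251 CPM (log2 over WT -1.93, -2.04 to -1.83, and -1.06, -1.17 to -0.96, or -0.97 with totals that leave out ribosomal protein and mitochondrial genes), and Hspa8 1593, 867 and 1125 CPM. Rbm3, an RNA-binding protein known as cold-inducible, was 161, 421 and 421 CPM. Cycling crypt cells had Hspa1a at 63.2, 0.539 and 0.827 CPM, with WT high there too. The stress list summed to 2896, 1696 and 1994 CPM, with 1 of 7 and 1 of 6 tested genes lower. The part of this in the other library differences was not tested.

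Secretory transcripts also moved with the library. Paneth genes summed to 3900, 1149 and 960 CPM in absorptive members, and within WT they were 3862, 3951 and 3903 CPM over the 3 Fabp1 bins, within LApc 1166, 1171 and 1104 CPM and within LApcL 932, 982 and 985 CPM. In absorptive members the level was thus flat within a library and different between libraries. Barcodes at or above the Paneth limit had been left out of them, so the flat level is a description. Over all members the sums were 4263, 4401 and 4737 CPM in WT and fell from 2007 to 1432 and 1265 CPM in LApc. In LApcL they were 1316, 1026 and 1064 CPM. Defa20, a Paneth defensin, was 666, 85.6 and 89.1 CPM in absorptive members and 676, 95.02 and 127 CPM in cycling crypt cells. Goblet genes summed to 3944, 2576 and 1082 CPM in absorptive members, and Itln1, an intelectin of Paneth and goblet cells, was 184, 37.5 and 37.6 CPM. Of the 56 genes lower in LApc over WT and 53 lower in LApcL over WT in all members, 5 and 5 were Paneth markers and 2 and 7 goblet markers. Each comparison tested 6 Paneth and 7 goblet markers, and 2.31% and 2.18% of all tested genes were lower. Hbb-bs, a globin, was 112 CPM in WT absorptive members with 499 of its UMIs, 99.4%, in 1 barcode, and is not read as a difference.

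Cycling members were a small minority. After thinning each barcode to 3000 UMIs, 6.26% of WT members (4.32 to 8.73), 5.36% of LApc members (3.98 to 7.04) and 7.36% of LApcL members (5.06 to 10.3) had 2 or more UMIs of the 8 cell cycle core genes, leaving out 0, 102 and 2 shallower barcodes. The intervals overlapped. Unthinned, the shares were 19.96%, 11.1% and 25.3%. In absorptive members they were 6.23% (4.04 to 9.13), 3.00% (1.91 to 4.47) and 8.26% (5.60 to 11.7), where LApc lay below LApcL beyond counting error. Apoa4-high enterocytes gave 3.73%, 3.34% and 5.93%. Cycling crypt cells gave 96.9%, 97.5% and 96.6%, a share set by their choice through these same genes. The shares of all members lay above those of Apoa4-high enterocytes in each library, with overlapping intervals. Apoa4-high enterocytes without other transcripts, the class to set beside absorptive members, gave 3.43%, 2.79% and 6.07%. The part of free RNA in these counts was not tested.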

How the data were processed

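Sorted EpCAM+ cells of 1 WT, 1 LApc and 1 LApcL library were run on the Chromium single-cell 3′ platform (kit v2 or v3; which library had which is not given in the sources used here). The authors quantified reads with Cell Ranger 2.1.1 against mm10 and deposited UMI counts per gene and barcode for 27998 genes, which were used here as counts. The study also left out barcodes in the lowest and highest 1%, which was run only as an alternative. It further looked for potential doublets with scDblFinder, a step not run here.

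The members and all gene lists were chosen with earlier results of these data known. UMI counts were summed over members of a library and divided by their total, scaled to CPM. Ratios carry exact conditional binomial intervals and shares exact Clopper-Pearson intervals, all 95%. A gene counted as 2-fold apart at a mean of 50 CPM or more. Levels are per UMI, so genes are compared between libraries and cells rather than with each other. With 1 library a group no test was made.

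The text names the 20 genes leading within every library at 100 CPM or more with 10 CPM added, up to 10 highest and 10 lowest genes per comparison whose interval lay wholly past 2-fold, 10 on each side against Apoa4-high cells, and genes of 38 fixed lists. Antisense, Gm, Rik, mitochondrial and ribosomal genes were counted but not named, and the results of certain other genes are not reported here. Thinning drew 3000 UMIs without replacement (seed 7). A count of 0 allows up to 3 UMIs. No doublet caller was run; instead the highest 10% by UMIs, or barcodes with other-type transcripts at 1% or more, were left out as alternatives. On simulated data 100% of 200 genes changed by a log2 of 1.5 were recovered in each comparison and 0 of 2216, 2220 and 2197 unchanged genes were called. The simulated counts held counting error only, with no variation between cells, mice or libraries. They check the calculation and cannot show how many real calls are right. Python 3.11.15, numpy 2.4.6, scipy 1.17.1, R 4.3.3 and edgeR 4.0.16 (scaling factors only) were used, with RefSeq GRCm38.p6 promoters and GENCODE M21 positions.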

Additional observations from a re-analysis of the deposited data

Results flagged for a closer look

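Barcodes over the 20% mitochondrial limit that met every other part of the rule were set aside from the comparisons, and in LApc they were more frequent than in the WT control. They made up 1.59% of barcodes with 500 or more genes in LApc (206 barcodes, 1.38 to 1.82%), 0.0748% in LApcL (13 barcodes, 0.0398 to 0.128%) and 0.0262% in WT (3 barcodes, 0.00540 to 0.0765%). The LApcL and WT intervals overlap. As a share of all barcodes over the limit they were 9.87% in LApc, 3.17% in LApcL and 4.84% in WT, which puts LApcL below WT. These barcodes had a median of 2104 UMIs and 40.5% mitochondrial UMIs in LApc, 4050 UMIs and 27.5% in LApcL, and 10060 UMIs and 21.0% in WT. They are not counted among the members.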

How the results depend on the processing

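No paired analysis was possible because each genotype has 1 library, and for the same reason no library was left out. Day, library and genotype cannot be told apart, and a depth of 4182631 to 6982490 member UMIs limits genes under about 50 CPM to wide intervals.

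The share of kept barcodes (4.49% in WT, 9.19% in LApc, 2.49% in LApcL) was 7.14%, 14.7% and 3.87% at a Fabp1 limit of 0.2%, 2.51%, 5.66% and 1.44% at 0.8%, 3.09%, 6.39% and 2.16% at an Apoa4 plus Apoc3 limit of 0.25%, and 6.45%, 12.5% and 2.93% at 1%. Without tuft, enteroendocrine, goblet and Paneth transcripts it was 3.38%, 7.31% and 2.07%, an alternative added after seeing the data. Leaving barcodes with other-type transcripts at 1% or more out of members and kept barcodes alike gave 7% in WT and 10.9% in LApc. LApc stayed highest and LApcL lowest under each of these.

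Counts of genes 2-fold higher and lower were 100 and 136 for LApc over WT, 87 and 138 for LApcL over WT, and 52 and 90 for LApcL over LApc at a filter of 10 CPM, and 1575 and 1775, 1996 and 1347, and 2183 and 699 with no filter. For LApcL over WT, 30 genes were higher with totals that leave out ribosomal protein and mitochondrial genes and 25 at a Fabp1 limit of 0.8%, and 81 were lower at the same mix of Fabp1 and Apoa4 plus Apoc3. For LApcL over LApc, 20 were higher with the former totals, 17 at 0.8%, 43 after thinning to 3000 UMIs and 28 without members holding a cell cycle UMI. Those totals moved the higher share of calls from 23.19% to 34.88% and from 20.75% to 30.77%. For LApc over WT, 31 were lower without other-type transcripts, under the planned and the added limits alike. The cause of these moves was not tested beyond the fewer or more genes each filter admits.

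Cycling shares were 19.96%, 11.1% and 25.3% with no thinning, 3.52% in WT at 2000 UMIs, 3.85%, 3.05% and 4.13% at a Fabp1 limit of 0.8%, and 3.00% in LApc under the added alternative.

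Among values called 2-fold apart, those that reversed were of secretory, tuft or globin genes or Tm4sf4, in LApc over WT and LApcL over LApc. Values not called also changed sign, such as the LApcL over WT median of brush border enzymes (-0.43, and 0.16 at the same mix). At a Fabp1 limit of 0.8%, LApc over WT was -1.14 for Reg4, -0.24 for Chga and 0.67 for Cck, and LApcL over LApc was 1.42 for Reg4, 0.10 for Chga, 0.35 for Gip and 0.28 for Hbb-bs, with an enteroendocrine list median of 0.56. With other-type transcripts removed, LApc over WT was 0.80 for Cck and 0.20 for Gip, and LApcL over LApc 0.23 for Reg4, -1.13 for Cck and 0.77 for Hbb-bs. Under the added alternative, LApc over WT was -0.11 for Reg4, -0.36 for Chga, 0.80 for Cck, 0.13 for Gip and 0.52 for Tm4sf4, and LApcL over LApc was -1.47 for Cck, -0.30 for Lrmp and 0.82 for Hbb-bs. The cause was not tested.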

Other observations

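Some genes had other values once tuft-like and secretory barcodes were left out, and others named here belong in no group above. Tm4sf4, a tetraspanin-like membrane protein, was 400.0, 182 and 373 CPM in all members of WT, LApc and LApcL, and 17.6, 25.1 and 88.8 CPM in absorptive members, with 15.6% of its UMIs in LApcL in 1 barcode. Krt18, a keratin, was 1318, 593 and 1120 CPM in all members and 114, 128 and 271 CPM in absorptive members. Myl7, a myosin light chain, was 22.9, 50.1 and 86.1 CPM in all members. Ndufaf2, an assembly factor of respiratory complex I, was 55.5, 36.1 and 88.7 CPM, and Sqrdl, which oxidises sulfide in mitochondria, was 84.3, 89.1 and 28.2 CPM. Acadl, a fatty acid dehydrogenase, was 83.3, 169 and 145 CPM.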
